A study of Homo sapiens with 4 samples.

Results

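The entries described here, hsa-miR-7-5p, hsa-miR-7-1-3p, hsa-miR-7-2-3p, hsa-miR-3529-3p and hsa-miR-3529-5p (written below without the species prefix), are the products of the human miR-7 genes and of MIR3529, a miRNA gene annotated on the DNA strand opposite MIR7-2. They were taken by name from a table of 2039 mature miRNAs, and 3 of the 5 had enough counts to be tested. HFE-145, the line all libraries came from, is a human epithelial line of the stomach. In 2 libraries the cells carried a vector and in 2 they overexpressed YAP5SA, a mutant of the Hippo pathway effector YAP that escapes inhibition by the LATS kinases. The sources used here name neither the promoter of the construct, nor the time after its introduction, nor the use of clones. Nothing says that replicates came from separate cultures, and the p-values therefore rest on a spread between samples that may be technical.

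miR-7 is a deeply conserved miRNA best known from neurons and endocrine cells, and its guide strand, miR-7-5p, represses mRNAs of growth factor signalling such as those of EGFR and IRS2. A pre-miRNA hairpin is cut by Dicer into a duplex, from which Argonaute keeps mainly the guide while the passenger strand is degraded. Humans have 3 genes that give the same miR-7-5p, and the passenger strands miR-7-1-3p and miR-7-2-3p differ between genes and so mark their gene of origin. In brain, the circular RNA CDR1as binds miR-7-5p and the long non-coding RNA Cyrano triggers its decay.

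The sequences of the table are shown because 2 of the entries are reverse complements of others, called mirror entries below. Capitals mark the seed, bases 2 to 8, which pairs with target mRNAs.
miR-7-5p: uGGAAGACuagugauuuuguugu
miR-3529-3p: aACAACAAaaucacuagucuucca
miR-7-1-3p: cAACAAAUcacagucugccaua
miR-7-2-3p: cAACAAAUcccagucuaccuaa
miR-3529-5p: aGGUAGACugggauuuguuguu
The reverse complement of miR-3529-3p, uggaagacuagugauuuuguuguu, begins with the whole 23-base miR-7-5p of the table and has 1 base more at its 3′ end. It is identical to the 24-base miR-7-5p of RefSeq. miR-3529-5p and miR-7-2-3p are likewise reverse complementary over 20 bases. No other entry of the table had the seed of miR-7-5p or that of miR-3529-3p. The passenger strands miR-7-1-3p and miR-7-2-3p shared a seed and differed at 4 of 22 positions, A10C, G17A, A20U and U21A, counted from the 5′ end with the miR-7-1-3p base first. miR-3529-5p shared its seed with miR-379-5p (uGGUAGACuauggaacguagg).

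Of the hairpins that hold the guide, those of MIR7-2 and MIR7-3 are shown next, as given by RefSeq on GRCh38.p14, with the mature arms in capitals. The hairpin of MIR7-1 also holds the guide but was missing from the sequences used, so it is not shown.
MIR7-2: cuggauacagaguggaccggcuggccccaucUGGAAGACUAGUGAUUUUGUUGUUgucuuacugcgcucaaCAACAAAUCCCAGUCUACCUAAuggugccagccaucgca
MIR7-3: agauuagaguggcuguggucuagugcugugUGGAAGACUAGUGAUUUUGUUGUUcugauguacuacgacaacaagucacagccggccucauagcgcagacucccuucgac
On GRCh38, MIR7-2 lies on the plus strand at chr15:88611825-88611934, with no host gene in GENCODE 29, and the nearest annotated gene other than MIR3529 is the miRNA gene MIR1179 at 3628 bases. MIR3529 lies on the minus strand at chr15:88611847-88611924, within the bounds of MIR7-2. The interval of miR-3529-3p, chr15:88611856-88611879, is also that of the guide arm of MIR7-2. MIR7-1 lies at chr9:83969748-83969857 in HNRNPK, which encodes an RNA-binding protein, on the same strand. Of 7 HNRNPK transcripts that span it, 6 have it in an intron and 1 has an exon that overlaps it. MIR7-3 lies at chr19:4770670-4770779, in an intron of the long non-coding RNA gene MIR7-3HG in each of 9 spanning transcripts. All 5 entries matched RefSeq names.

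**Figure D1:**
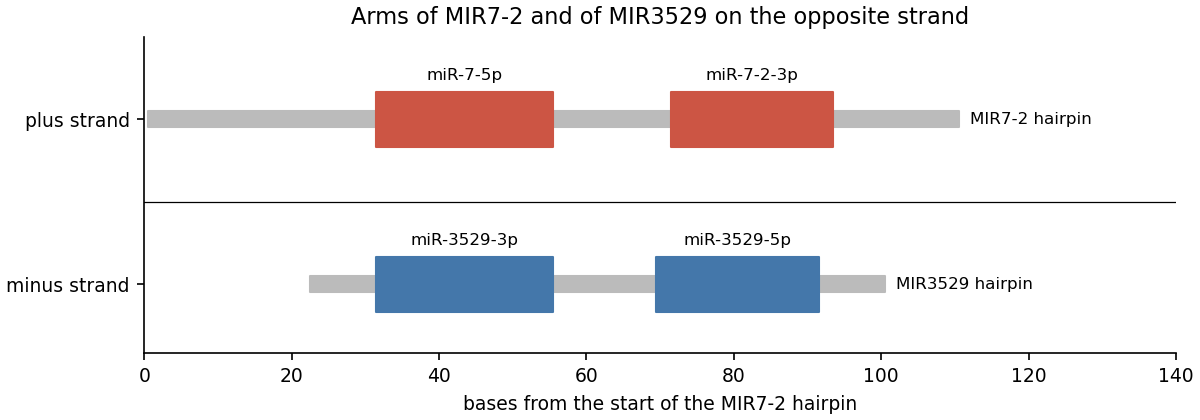
The arms of MIR7-2 (plus strand) and MIR3529 (minus strand), drawn to scale in bases from the start of the MIR7-2 hairpin, with hairpins as thin grey bars. The miR-7-5p and miR-3529-3p arms both cover bases 32 to 55, while miR-7-2-3p covers bases 72 to 93 and miR-3529-5p bases 70 to 91.

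Total counts ranged from 136903 to 217235 per library. Epithelial and gastric markers had counts throughout, with the 7 epithelial markers summing to 12076 to 29164 counts in a library scaled to 1000000 (CPM) and the 2 gastric markers to 11139 to 34148. In both lists the YAP5SA libraries had the lower sums. The epithelial markers were uneven, with means of 10024 CPM for miR-200c-3p and 271 CPM for miR-429. The gastric sum was nearly all miR-148a-3p (mean 23271 CPM), while the other gastric marker, miR-375 (mean 217 CPM), had a log2 change of 0.11 with YAP5SA. Lower levels in both YAP5SA libraries were common among highly counted miRNAs, at 63.6% of the 66 described below. Whether the lower sums reflect a change of cell identity was not tested. The markers of 6 other cell types summed to 0.0239% and 0.0307% of counts with the vector, against 0.101% in YAP5SA replicate 1 and 0.0344% in YAP5SA replicate 2, and miR-451a, miR-1, miR-206, miR-145-5p and miR-124-3p were at 0 in at least 1 library. Entries with a mean count under 20 took 3.41% and 3.15% of counts with the vector, against 10.5% in YAP5SA replicate 1 and 5.56% in YAP5SA replicate 2. The part of this shift in the results below was not tested.

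miR-7-5p and its mirror entry miR-3529-3p were among the most abundant miRNAs of these cells, and both were lower with YAP5SA. Together they took 10.7% of all counts in vector replicate 1, 9.06% in vector replicate 2, 6.54% in YAP5SA replicate 1 and 4.78% in YAP5SA replicate 2. Fewer cells with the miRNA and less of it per cell cannot be told apart in such bulk samples. Because the use of strand in counting is not given, reads of miR-7-5p and of miR-3529-3p cannot be told apart from this table.

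The guide miR-7-5p (hsa-miR-7-5p) had 7045 counts in vector replicate 1, 4824 in vector replicate 2, 2251 in YAP5SA replicate 1 and 2480 in YAP5SA replicate 2. These were 3.24% (exact Clopper-Pearson 95% interval 3.17 to 3.32) and 2.47% (2.40 to 2.54) of the vector libraries and 1.64% (1.58 to 1.71) and 1.29% (1.24 to 1.34) of the YAP5SA libraries. Such intervals cover counting error only, since reads without molecular identifiers are not independent molecules. Both YAP5SA libraries lay below both vector libraries, and the vector libraries differed from each other beyond counting error. By rank in the library, miR-7-5p was 5th and 8th among the vector libraries and 8th and 11th among the YAP5SA libraries, so the ranks met at 8.

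After scaling by the trimmed mean of M-values (TMM), miR-7-5p stood at 37222 and 31709 CPM in the vector libraries and at 12786 and 12979 CPM in the YAP5SA libraries. Its mean of 34465 ± 3898 CPM with the vector was 2.68-fold that of 12883 ± 136 CPM with YAP5SA (SD, n = 2), a fall which is -1.42 on the log2 scale (SE 0.26; adjusted p = 0.024 by edgeR\'s quasi-likelihood test with Benjamini-Hochberg adjustment). The gap between the groups was larger than the spread within either. Of the 602 miRNAs tested, 3.49% were called lower and 11.8% higher. On the TMM scale 26.6% of them had both YAP5SA libraries below both vector libraries. Of all 2039 entries, 5.39% had lower shares of counts in both YAP5SA libraries than in both vector libraries.

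miR-3529-3p, the opposite-strand entry (hsa-miR-3529-3p), had 16230 and 12877 counts with the vector, and 6700 and 6687 with YAP5SA. Its share of counts was 7.47% and 6.59% with the vector and 4.89% and 3.48% with YAP5SA, again without overlap. It ranked 3rd and 4th in the vector libraries and 3rd and 5th in the YAP5SA libraries, so by rank the groups did overlap. On the TMM scale it fell 2.33-fold. The mean was 85197 ± 782 CPM with the vector against 36527 ± 2164 CPM with YAP5SA (SD, n = 2), or a log2 change of -1.22 (SE 0.26, edgeR adjusted p = 0.030). Thus 2 of the 3 tested members were called lower, but their reads cannot be told apart here, so these may not be separate results. Both had a mean above 1000 CPM. Of the 66 miRNAs at or above that level, 19.7% were called lower and 63.6% had both YAP5SA libraries below both vector libraries, and 7 had a log2 fold change below that of miR-7-5p and 11 below that of miR-3529-3p.

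**Figure D2:**
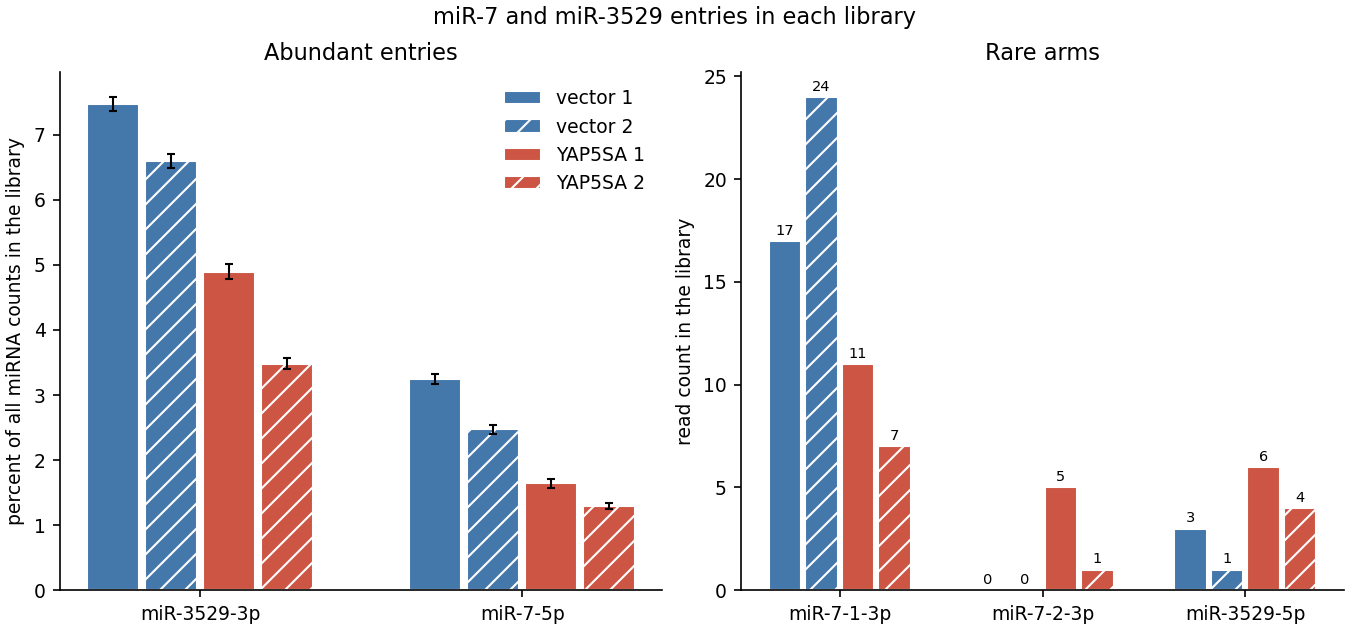
Left, the percent of all miRNA counts taken by miR-3529-3p and miR-7-5p in each library, with exact binomial 95% intervals; right, the read counts of the rare arms. The 2 abundant entries are lower in both YAP5SA libraries, while miR-7-2-3p has 0 counts with the vector, 5 in YAP5SA replicate 1 and 1 in YAP5SA replicate 2.

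These falls sat against a shift that depends on the scaling. The median log2 fold change of all tested miRNAs was 0.11 with TMM, 0.61 with library totals alone, 0.76 with scaling from abundant miRNAs and -0.58 with scaling from rarely counted ones. The 66 abundant miRNAs described above had a median of -0.68 with TMM, so part of each distance given next is shared with them. Since a scaling shifts all miRNAs alike, the distance to the median of all tested miRNAs is nearly fixed across scalings. That distance was compared across filters and tools instead. For miR-7-5p it was -1.53 as reported, -2.13 with no filter, -1.17 where only means of 100 CPM or more were tested, and -0.61 with the authors' log2 values. For miR-3529-3p it was -1.34, -1.94, -0.96 and -0.08 in the same order. In absolute terms the log2 fold change of miR-7-5p was -0.91 with library totals (edgeR adjusted p = 0.0064) and -0.74 with scaling from abundant miRNAs (edgeR adjusted p = 0.024). miR-3529-3p had -0.70 with library totals (edgeR adjusted p = 0.025), and with scaling from abundant miRNAs it had -0.53 and was not called (edgeR adjusted p = 0.084). Without vector replicate 1 or 2 neither was called (adjusted p = 0.60 and 0.45 for miR-7-5p and 0.68 and 0.64 for miR-3529-3p, edgeR), although the log2 fold changes were -1.53 to -1.90. In those fits edgeR called 0 miRNAs lower, where 24 and 32 had an unadjusted p under 0.05.

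The share of all tested miRNAs called lower moved with the processing, and the members' calls are to be read beside it. It was 4.98% with DESeq2 size factors, 3.32% with upper quartile scaling, 1.99% with library totals, 0.831% with scaling from abundant miRNAs and 18.8% with scaling from rare ones. It was 0.688% with no filter, 0.0558% and 0.317% with a mean of at least 10 and 100 CPM, 5.65% with the replicate block, 8.39% and 16.8% without YAP5SA replicate 1 and 2, 2.99% with DESeq2 and 1.66% with limma-voom. In all of these except no filter and the filters by mean CPM, miR-7-5p was called lower.

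**Figure D3:**
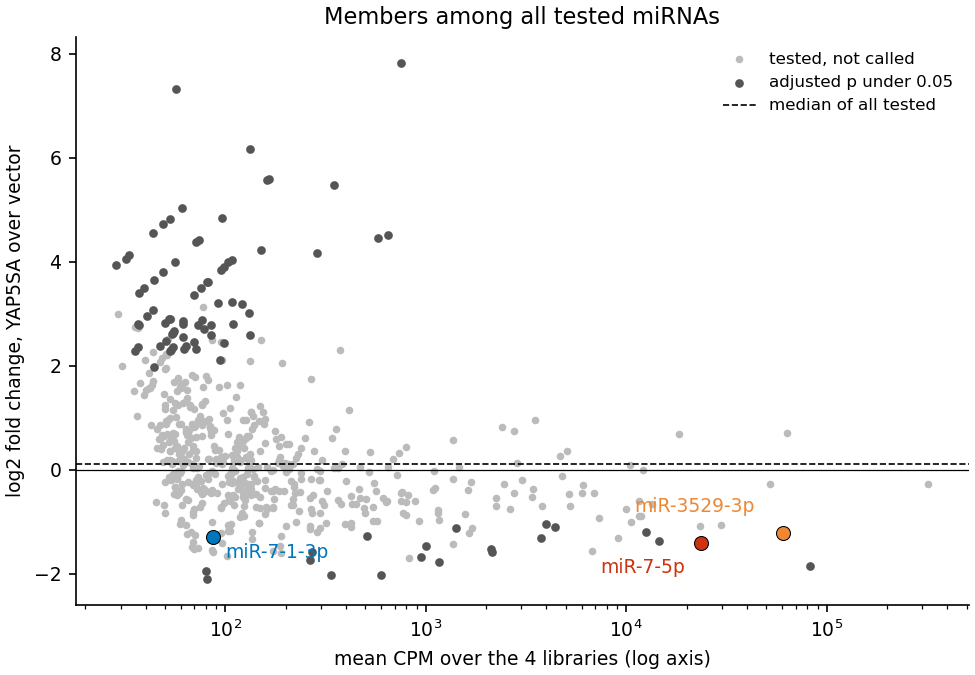
The log2 fold change of YAP5SA over vector against the mean CPM over the 4 libraries (log axis) for 602 tested miRNAs, with called miRNAs in dark grey and 3 members in colour. miR-7-5p at -1.42 and miR-3529-3p at -1.22 lie among abundant miRNAs, most of which are below 0, and miR-7-1-3p at -1.30 lies among rarely counted ones.

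**Figure D4:**
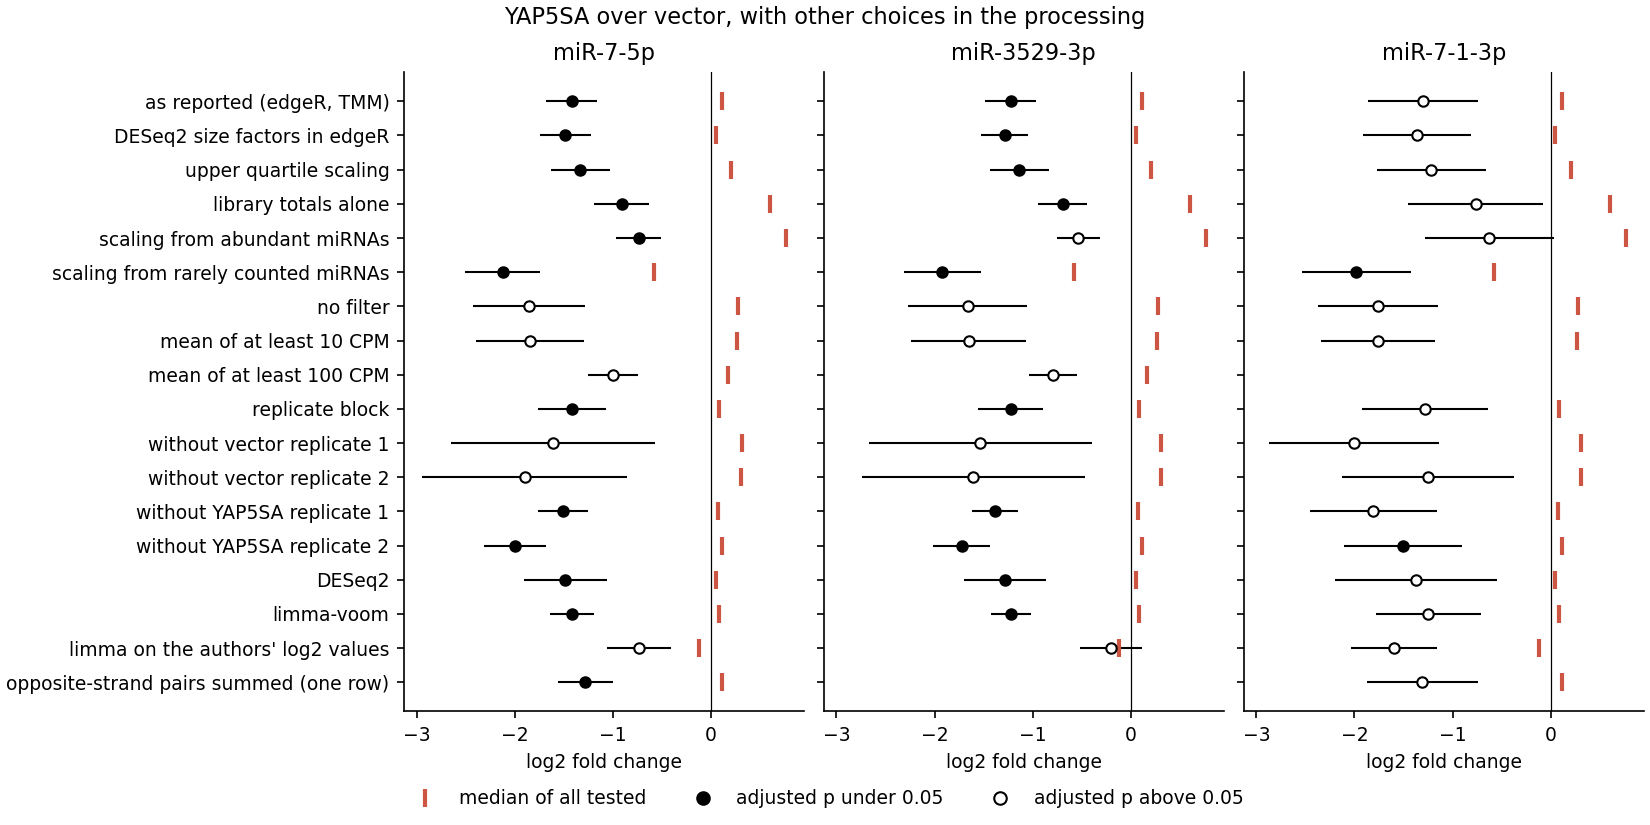
The log2 fold change with its SE for miR-7-5p, miR-3529-3p and miR-7-1-3p as reported and with other choices in the processing, filled where the adjusted p is under 0.05; red ticks are the median of all tested miRNAs. In the bottom line of the left panel miR-7-5p and miR-3529-3p are summed. All values lie below 0, from -2.12 to -0.73 for miR-7-5p and from -1.92 to -0.20 for miR-3529-3p.

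On the authors' normalized scale the opposite-strand entry changed little. The deposited log2 values of miR-3529-3p were 13.62 and 13.09 in the vector libraries and 13.62 and 12.69 in the YAP5SA libraries, so the groups overlapped. The authors' deposited table gives it a fold change of 0.901 with p = 0.0076. For miR-7-5p the deposited log2 values were 12.69 and 11.82 with the vector and 11.82 and 11.23 with YAP5SA, and the authors' deposited table gives a fold change of 0.587 with p = 0.031. The value 11.82 was thus the same in vector replicate 2 and YAP5SA replicate 1, libraries with 4824 and 2251 counts and with miR-7-5p at rank 8 in both. Likewise miR-3529-3p had 13.62 in vector replicate 1 and YAP5SA replicate 1, at rank 3 in both. Rank 5 gave 12.69 for miR-7-5p in vector replicate 1 and for miR-3529-3p in YAP5SA replicate 2. For these 2 entries, equal ranks had equal deposited values, whatever the counts. By the authors' deposited table, 5.05% of the 2039 miRNAs had p under 0.05 with a fold change under 1. Limma on these log2 values called neither entry, with a log2 change of -0.73 (SE 0.32, adjusted p = 0.25) for miR-7-5p and -0.20 (SE 0.32, adjusted p = 0.71) for miR-3529-3p, where the median of all tested miRNAs was -0.12 and 0.166% were called lower.

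With the mirror entries counted as one, the sum was called lower. This is no separate support, since each entry was already called lower. Summed, miR-7-5p and miR-3529-3p had 23275 and 17701 counts with the vector, and 8951 and 9167 with YAP5SA. The sum had a log2 change of -1.28 (SE 0.28, edgeR adjusted p = 0.024). In that fit 4.16% of 601 miRNAs were called lower.

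Within each library miR-3529-3p had more counts than miR-7-5p, and this ratio does not depend on the scaling. It was 2.30 (exact 95% interval 2.24 to 2.37) and 2.67 (2.58 to 2.76) in the vector libraries and 2.98 (2.84 to 3.12) and 2.70 (2.57 to 2.82) in the YAP5SA libraries. Both YAP5SA ratios were above both vector ratios, but those of vector replicate 2 and YAP5SA replicate 2 overlapped within counting error. The exact two-sided permutation test gave p = 0.333, the smallest that this test can give with 2 against 2 samples, so it could not have passed a threshold of 0.05.

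Other reverse-complementary pairs of the table were searched for comparison. In all, 139 pairs of entries were reverse complementary over at least 16 bases, and 20 of these had both entries tested. Of the 20, 6 are the 5p and 3p arms of a single miRNA and 1 joins miR-103b to miR-107, a relative of its opposite-strand partner miR-103a-3p. In 9 of the remaining 13, a set chosen after the values were seen, the counts of both entries were within 2-fold of each other in all 4 libraries, which those of miR-7-5p and miR-3529-3p were not. miR-3184-5p, opposite miR-423-3p, had 1020 counts against 1074 in vector replicate 1 and 1259 against 1152 in YAP5SA replicate 2. miR-203a had 1.02 to 1.16 times the counts of miR-203b-5p. Ratios were larger for miR-371b-3p over miR-371a-5p, at 3.22 to 3.76, for miR-371a-3p over miR-371b-5p, at 7.88 to 8.77, and for miR-24-3p over miR-3074-5p, at 18.3 to 23.7. Of 8 such pairs with entries of unequal length, the longer entry had more counts over the 4 libraries in 7, miR-3529-3p with 24 bases against 23 among them. This did not hold in each single library, since the longer miR-3184-5p had fewer counts than miR-423-3p in vector replicate 1. The log2 fold changes of miR-7-5p and miR-3529-3p differed by 0.20, and those of the other 12 pairs by 0.0040 to 0.55, with a median of 0.16. No test was made of these pairs.

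**Figure D5:**
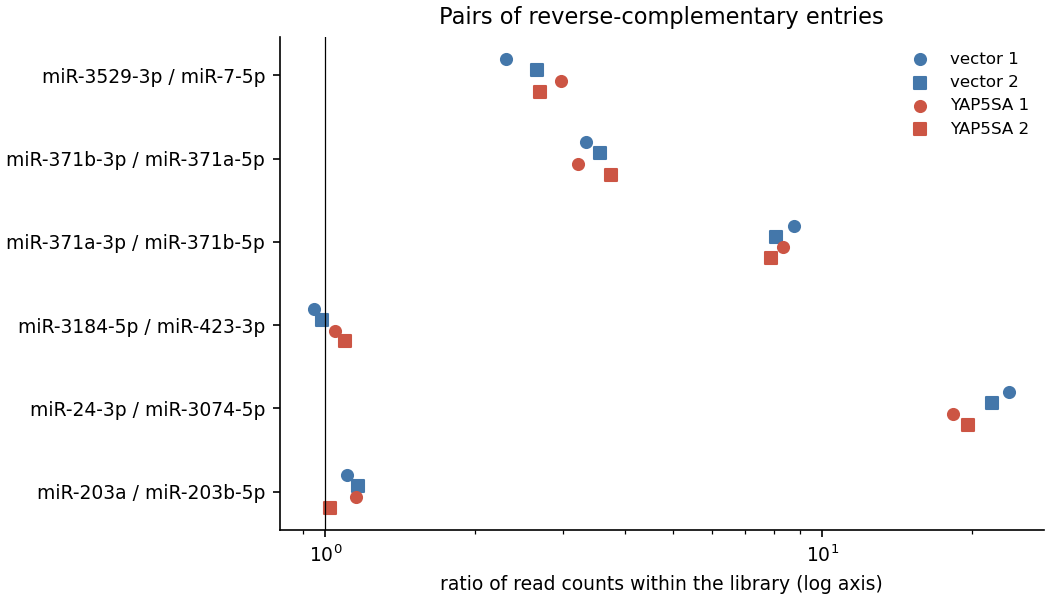
The ratio of read counts of the 2 entries in the 6 most counted reverse-complementary pairs, for each library (log axis; blue for vector, red for YAP5SA). The ratio of miR-3529-3p to miR-7-5p lies between 2.30 and 2.98, and those of miR-3184-5p to miR-423-3p and of miR-203a to miR-203b-5p lie near 1.

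The passenger strand of the HNRNPK gene's hairpin, hsa-miR-7-1-3p, was rare. It had 17 and 24 counts with the vector, and 11 and 7 with YAP5SA, or 89.8 and 158 CPM against 62.5 and 36.6 CPM. On the TMM scale both YAP5SA libraries lay below both vector libraries, as for 26.6% of all tested miRNAs. As shares of all counts its groups overlapped, at 0.00783% and 0.0123% against 0.00803% and 0.00365%. Its log2 change of -1.30 (SE 0.56, edgeR adjusted p = 0.15) did not pass. The depth allows no firmer statement, since the exact 95% interval of its share in YAP5SA replicate 1 ran from 0.00401% to 0.0144%. It was called lower with scaling from rarely counted miRNAs (edgeR adjusted p = 0.029) and without YAP5SA replicate 2 (edgeR adjusted p = 0.043).

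The guide outnumbered this passenger strand by a wide margin in every library. There were 414 miR-7-5p counts for each miR-7-1-3p count in vector replicate 1, 201 in vector replicate 2, 205 in YAP5SA replicate 1 and 354 in YAP5SA replicate 2. The groups overlapped. An exact two-sided permutation test, which cannot give less than 0.333 here, gave p = 1.0, so it says nothing on whether the ratio changed. The exact 95% intervals were as wide as 172 to 882 in YAP5SA replicate 2, and the guide also comes from MIR7-2 and MIR7-3, so the ratio is not that of 1 hairpin. It also leaves out the more numerous counts of miR-3529-3p, whose reads cannot be told apart from those of the guide here.

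miR-7-2-3p, the passenger strand of MIR7-2, (hsa-miR-7-2-3p) had 0 counts in both vector libraries, 5 in YAP5SA replicate 1 and 1 in YAP5SA replicate 2. It had too few counts to be tested. A count of 0 over the vector group allows up to 3 counts, or 8.79 CPM. The pooled YAP5SA level of 16.3 CPM was 1.86 times that floor. This ratio makes no allowance for the counting error of 6 counts, so it is not a lower bound. It rests on YAP5SA replicate 1, at 28.4 CPM, since YAP5SA replicate 2 was at 5.23 CPM, below the floor. Among all 93 entries with 0 counts in both vector libraries, 47.3% had at least 6 counts over the YAP5SA libraries, so this count is near the middle of such entries. With no filter on low counts edgeR gave it adjusted p = 0.34.

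Of the passenger strands that mark a gene of origin, those of MIR7-1 made up 41 of 41 counts in the vector libraries (100%, exact 95% interval 91.4 to 100) and 18 of 24 in the YAP5SA libraries (75.0%, 53.3 to 90.2). By library, miR-7-1-3p held 17 of 17, 24 of 24, 11 of 16 and 7 of 8. The pooled shares leave out the spread between libraries, and the intervals of single libraries did overlap, from 80.5% to 100% and 85.8% to 100% with the vector against 41.3% to 89.0% and 47.3% to 99.7% with YAP5SA. YAP5SA replicate 1, with the largest share of rare entries, gave 5 of the 6 miR-7-2-3p counts, and the part of that share in the result was not tested. No miR-7-3 passenger strand was analysed here. Reads of miR-7-2-3p and of miR-3529-5p, its mirror image over 20 bases, cannot be told apart without strand. The shares above leave out miR-3529-5p, which had 3 and 1 counts with the vector and 6 and 4 with YAP5SA. They hold only if strand was used in counting.

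miR-3529-5p had 3 and 1 counts with the vector, and 6 and 4 with YAP5SA. It also had too few counts to be tested, and with no filter on low counts edgeR gave a log2 change of 0.73 (SE 1.01, adjusted p = 0.79). Its partner arm miR-3529-3p had 5410 and 12877 counts for each of its counts with the vector, against 1117 and 1672 with YAP5SA (exact two-sided permutation p = 0.333, the smallest possible). These ratios rest on 1 to 6 counts of miR-3529-5p, and the share of rare entries given above was higher where they were lower. miR-379-5p, which has the same seed, had 1 and 3 counts with the vector and 22 and 9 with YAP5SA. MIR1179, the nearest neighbour of MIR7-2, gave miR-1179 2 and 3 counts with the vector and 7 and 3 with YAP5SA.

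Of 8 miRNAs reported to target EGFR, as miR-7-5p does, 4 were tested. Of these, 1 was called lower and 1 higher, where 3.49% and 11.8% of all tested miRNAs were called. The log2 fold change was below 0 for 3 of the 4, with a median of -0.85 against 0.11 for all tested. For the 66 abundant miRNAs described above, the median was -0.68 with TMM. Of the list, miR-128 and miR-27a-3p were in that abundant set, at means of 2141 and 9090 CPM, while miR-542-5p and miR-134 were not. The contrast with 0.11 was thus not separated from the lower values that abundant miRNAs had with this scaling. miR-128, best known from neurons, had 729 and 390 counts with the vector and 190 and 204 with YAP5SA, and fell by 1.58 ± 0.31 on the log2 scale (SE; adjusted p = 0.030, edgeR). miR-134, a miRNA of the imprinted DLK1-DIO3 locus, had 4 and 2 counts against 12 and 14 and rose by 1.97 ± 0.54 (SE; adjusted p = 0.048, edgeR). The call of miR-134 rests on few counts and was lost with scaling from rarely counted miRNAs, no filter, a mean of at least 10 CPM, DESeq2, limma-voom, limma on the authors' values and each replicate left out. The call of miR-128 was lost with scaling from abundant miRNAs, a mean of at least 10 or 100 CPM, limma on the authors' values and without either vector replicate. For miR-27a-3p the log2 change was -1.32 (edgeR adjusted p = 0.054), and it was called lower with DESeq2 size factors, library totals, scaling from rarely counted miRNAs, the replicate block, either YAP5SA replicate left out, DESeq2 and the 2 mirror entries summed. The list then had 2 members called lower. With scaling from rarely counted miRNAs, DESeq2 or either YAP5SA replicate left out it had 0 called higher. For miR-542-5p the log2 change was -0.37 (edgeR adjusted p = 0.64). The list's median was -0.17 with scaling from abundant miRNAs and -1.55 with scaling from rare ones.

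miR-671-5p is known to direct the cutting of CDR1as, the circular RNA that binds miR-7-5p. It had 8 and 5 counts with the vector, and 8 and 8 with YAP5SA, too few to test. Its partner arm miR-671-3p had 42 and 29 against 39 and 37 counts, with a log2 change of 0.01 (SE 0.40, edgeR adjusted p = 0.99). Of 5 neuroendocrine and islet miRNAs, the cell types in which miR-7-5p is best known, 2 were tested and 0 were called by edgeR, DESeq2 or limma-voom, with 1 at an unadjusted p under 0.05. miR-375, an islet and gastric miRNA, had 44 and 28 counts with the vector and 38 and 45 with YAP5SA, and a log2 change of 0.11 (adjusted p = 0.88). miR-9-5p, a neural miRNA, had 5 and 2 against 13 and 17 counts and a log2 change of 1.96 (adjusted p = 0.052). Of these 2, 1 was called higher with upper quartile scaling (15.8% of all tested called higher), library totals (24.4%), scaling from abundant miRNAs (25.2%), the replicate block (16.9%) and the 2 mirror entries summed (14%).

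The miRNAs whose levels followed those of miR-7-5p most closely were miR-125b-1-3p, let-7g-5p, miR-625-3p, miR-425-5p and miR-615-3p, by Pearson's r of log2 CPM over the 4 libraries (at least 0.997). Those closest to miR-3529-3p were miR-93-5p, miR-188-3p, miR-203a, miR-3184-3p and miR-222-3p (0.998 to 0.999). These values are a description over 4 points that share library depth and scaling, and r exceeded 0.95 for 39 and 38 of the 316 miRNAs compared. Their log2 fold changes differed, from -0.65 for miR-425-5p to -1.53 for miR-615-3p in the first set and from -0.44 for miR-222-3p to -1.20 for miR-188-3p in the second.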

How the data were processed

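Small RNA libraries were made from total RNA of HFE-145 cells, 2 with vector and 2 with YAP5SA, with groups and replicate numbers from the sample titles. Per the file headers, the deposited read counts per mature miRNA are raw. The deposited log2 values are, per the file headers, log2 of a normalized count, by a method the sources used here do not give. The fold change and the p-value of the authors' deposited table compare YAP5SA with vector, by an unnamed test. The submitters' processing notes name FastQC and hg19. The sources used here do not name the aligner, the counter, whether it used strand, or the annotation. Positions are from RefSeq (GRCh38.p14) and GENCODE 29, and none was converted from hg19.

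The 2039 entries went into edgeR 4.0.16 under R 4.3.3 (quasi-likelihood test, TMM, default filter, group only, Benjamini-Hochberg, threshold 0.05), and 602 entries with 96.9% of counts passed the filter. The SE is the size of the log2 fold change divided by the square root of F. CPM values use the effective library sizes of the tested entries, and log2 CPM for the likeness used a prior count of 2. Entries are not divided by length, which is 22 to 24 bases for the members. Alternatives were DESeq2 1.42.0, limma 3.58.1, other scalings and filters, miR-7-5p and miR-3529-3p summed, a replicate block and leaving out each sample. Searches used Python 3.11.15 and SciPy 1.17.1, and figures matplotlib 3.10.9. Members and lists were chosen with earlier results of these data known. miRNAs were named by a rule: all members, 5 nearest in level to each abundant member, mirror pairs by counts, and of each list those past the threshold and up to 4 others. miR-1179 and miR-379-5p were added for position and seed, after their values were seen. Same-numbered replicates did not deviate together (correlation 0.02 over 602 entries).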

Additional observations from a re-analysis of the deposited data

How the results depend on the processing

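The log2 fold change of miR-7-5p was below 0 under all 17 alternatives run, with adjusted p from 2.7e-08 to 0.60, and it kept its call in 11. miR-3529-3p was below 0 in 16 and kept its call in 9, with adjusted p from 1.6e-07 to 0.71. miR-7-1-3p was below 0 in 16 and was called in 2, at -1.98 with scaling from rarely counted miRNAs and within the range of its fits with a replicate left out, from -1.25 to -2.01. Calls of the 2 abundant members were lost with no filter (-1.85 and -1.66 for miR-7-5p and miR-3529-3p), a mean of at least 10 CPM (-1.84 and -1.65), a mean of at least 100 CPM (-0.999 and -0.79) and limma on the authors' log2 values (-0.73 and -0.20), and for miR-3529-3p with scaling from abundant miRNAs (-0.53). With a replicate left out they ranged from -1.51 to -1.99 and from -1.38 to -1.72. Such fits tested 679 to 1042 miRNAs, redo the filter and assume that a lone sample varies like the other group; the cause of the other losses was not tested.

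Over all miRNAs edgeR called 21 lower and 71 higher. The number lower was 12 with library totals, 5 with scaling from abundant and 113 with scaling from rarely counted miRNAs, 1 each with a mean of at least 10 or 100 CPM and with limma on the authors' values, 10 with limma-voom, and 0 to 159 with a replicate left out (0 without vector replicate 1 or 2, where 1 and 13 were higher). The number higher was 147 with library totals, 152 with scaling from abundant miRNAs, 34 with no filter, 19 and 25 with a mean of at least 10 and 100 CPM, 36 with DESeq2, 21 with limma-voom, 9 with limma on the authors' values and 1 to 124 with a replicate left out. With the replicate block 34 were lower and 102 higher, miR-7-5p was at -1.42 and miR-3529-3p at -1.22, and no member changed its call; the numbers are shared without a stated pairing. Without the most abundant miRNA in the total, the mean summed share of miR-7-5p and miR-3529-3p was 13.9% in place of 9.89% with the vector and 8.29% in place of 5.66% with YAP5SA. Mirror pairs over at least 20 bases numbered 65 in place of 139. Depth limits the 3 rare arms, with 59 counts or fewer over the 4 libraries.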

Other observations

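The deposited table gives miR-3529-5p an interval that starts 40 bases before that of miR-7-2-3p, the entry it mirrors. In RefSeq the 2 intervals start 2 bases apart, and the interval 40 bases before miR-7-2-3p is the guide arm of MIR7-2. The table gives a single interval for miR-7-5p, of 23 bases, although 3 genes produce it, and it gives none for miR-3529-3p, as for 152 of its 2039 entries including this one. It holds no chromosome names.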
